A study of Mus musculus with 8 samples.

Results

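The genes described here are 9 genes, most of them of the interferon γ response, in macrophages sorted from the epididymal white adipose tissue (eWAT) of obese mice. They are the chemokine genes *Cxcl9* and *Cxcl10*, the transcription factor gene *Irf1*, the guanylate-binding protein (GBP) genes *Gbp2*, *Gbp3*, *Gbp5* and *Gbp6*, and 2 further genes, *Aif1* and *AW112010*. These 9 members, of 54146 genes in the deposited counts and 17095 genes tested, were selected on their measured values in the comparison of FCGR4+ with FCGR4- cells in these same libraries, so their values in that comparison describe them and test nothing. Each of 4 C57Bl6 mice gave 1 library of FCGR4+ and 1 library of FCGR4- macrophages, 8 bulk RNA-Seq libraries in all. Before the sort, every mouse had eaten a high-fat high-cholesterol (HFHC) diet freely for 24 weeks and had then been given 30% less food over 2 weeks, a treatment called stCR (short-term caloric restriction), so there is no group without stCR here. FCGR4 is a receptor for the constant region of IgG. The labels give mice 1 and 2 an animal ID that begins with S395 and mice 3 and 4 one that begins with S491, and do not say what these prefixes mean.

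Interferon γ is made mainly by T and NK cells. It binds a receptor of the subunits IFNGR1 and IFNGR2. The signal runs through the kinases JAK1 and JAK2 to gamma-activated sites (GAS) near target genes, and one of the first targets, IRF1, in turn binds interferon-stimulated response elements (ISRE). CXCL9 and CXCL10 leave the macrophage and attract cells with the receptor CXCR3, chiefly activated T and NK cells. The GBPs are GTPases that gather on the membranes around intracellular microbes. Type I interferons act through a related complex on the ISRE and also raise *Cxcl10*, while *Cxcl9* depends more strictly on interferon γ. *Aif1* encodes IBA1, an actin-bundling protein used as a macrophage marker, and *AW112010* is an interferon-inducible transcript of myeloid cells.

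The promoter windows of 6 of the members are printed here because these genes differed in their pattern across mice, as described after them. The windows are those of RefSeq on GRCm38.p6, from 250 bases before to 50 bases after the start of transcription, and 10 windows were found for 8 of the 9 members (all but *Gbp6*). *Irf1* and *Gbp3* have 2 windows each, of which the upstream one is printed. Capitals mark every match, on either strand, to one of 3 patterns: the GAS (TTCNNNGAA), the ISRE core (GAAANNGAAA) and an NF-κB site (GGGANNTTCC). Positions are counted from the first transcribed base as 0.
Cxcl9, chr5:92328030-92328329, minus strand: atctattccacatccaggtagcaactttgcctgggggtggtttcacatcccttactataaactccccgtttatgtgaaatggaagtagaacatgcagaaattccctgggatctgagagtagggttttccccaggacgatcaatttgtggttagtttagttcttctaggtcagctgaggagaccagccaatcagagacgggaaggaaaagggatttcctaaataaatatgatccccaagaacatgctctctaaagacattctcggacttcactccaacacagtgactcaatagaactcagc
Cxcl10, chr5:92348840-92349139, minus strand: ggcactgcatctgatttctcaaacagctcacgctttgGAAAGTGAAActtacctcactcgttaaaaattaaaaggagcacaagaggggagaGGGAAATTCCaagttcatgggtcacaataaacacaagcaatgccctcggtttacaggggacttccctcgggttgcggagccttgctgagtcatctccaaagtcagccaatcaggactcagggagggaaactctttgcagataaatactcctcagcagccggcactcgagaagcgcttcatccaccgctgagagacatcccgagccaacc
Irf1, chr11:53769764-53770063, plus strand: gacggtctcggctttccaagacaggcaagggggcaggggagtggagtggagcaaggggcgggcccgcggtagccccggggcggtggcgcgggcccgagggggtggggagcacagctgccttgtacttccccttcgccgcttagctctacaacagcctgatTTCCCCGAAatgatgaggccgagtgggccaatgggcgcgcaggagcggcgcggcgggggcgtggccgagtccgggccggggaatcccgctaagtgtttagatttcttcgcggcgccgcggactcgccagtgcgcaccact
Gbp2, chr3:142620413-142620712, plus strand: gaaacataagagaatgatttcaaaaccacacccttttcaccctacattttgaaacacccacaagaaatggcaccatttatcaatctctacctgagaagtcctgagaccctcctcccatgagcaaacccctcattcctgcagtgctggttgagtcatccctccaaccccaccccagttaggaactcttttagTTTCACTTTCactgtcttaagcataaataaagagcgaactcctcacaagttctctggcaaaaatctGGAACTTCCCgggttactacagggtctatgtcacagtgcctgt
Gbp3, chr3:142559794-142560093, plus strand: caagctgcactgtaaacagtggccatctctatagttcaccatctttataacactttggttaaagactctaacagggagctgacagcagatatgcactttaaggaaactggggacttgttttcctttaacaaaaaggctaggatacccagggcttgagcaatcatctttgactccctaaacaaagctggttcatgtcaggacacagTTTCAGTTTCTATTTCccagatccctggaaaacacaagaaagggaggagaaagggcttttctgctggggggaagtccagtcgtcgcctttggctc
Gbp5, chr3:142496684-142496983, plus strand: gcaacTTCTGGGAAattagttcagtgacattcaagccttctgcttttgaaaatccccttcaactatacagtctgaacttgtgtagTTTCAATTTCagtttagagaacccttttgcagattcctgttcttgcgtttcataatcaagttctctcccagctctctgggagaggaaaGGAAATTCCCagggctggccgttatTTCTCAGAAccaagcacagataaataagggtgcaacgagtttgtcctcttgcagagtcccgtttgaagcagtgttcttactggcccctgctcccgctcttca

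The printed window of *Irf1* held 1 GAS, from -90 to -82, and no ISRE core or NF-κB pattern. That of *Cxcl10* held an ISRE core from -213 to -204 and an NF-κB pattern from -159 to -150, and that of *Gbp2* held both patterns too, from -59 to -50 and from 7 to 16. *Gbp3* had 2 overlapping ISRE cores between -45 and -30. *Gbp5* was the only member with all 3 patterns, among them GAS at -245 and -52. None of these letter patterns was in the window of *Cxcl9*, which says nothing of sites outside the window or of variants of the pattern. The second windows of *Irf1* and *Gbp3* held none of the 3 patterns. Of the 10 windows of members, 2 had a GAS, 5 an ISRE core and 4 an NF-κB pattern. Over all 32851 promoter windows of the same length, which belong to 27025 genes, 8.30% held a GAS, 3.44% an ISRE core and 1.47% an NF-κB pattern. A match is a description of the letters and not of binding.

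Library totals lay between 35992794 and 66856746 counts, and every member had at least 10 counts in 8 of 8 libraries, so the filter removed none. A total of 3 counts corresponded to at most 0.0883 normalized CPM (counts scaled to library size with edgeR's TMM factors). *Fcgr4* itself ranged from 138.6 to 236.4 normalized CPM in FCGR4+ libraries and from 48.5 to 82.9 in FCGR4- libraries, so its gene followed the sort labels in 4 of 4 mice. The sort kept CD45+ CD11b+ cells and removed cells with CD3, B220, Ly6G or Siglec-F. Macrophage markers were abundant in every library, with a sum of 10 genes from 22935 to 52443 normalized CPM. This sum is weighted to its most abundant gene, at 23011 and 21429 normalized CPM on the mean of FCGR4+ and FCGR4- libraries. None of the 10 passed the threshold of 0.1 on edgeR's adjusted P value, but 5 had an unadjusted P under 0.05, DESeq2 called 5 as higher in FCGR4+ cells, and 6 were higher there in every mouse, as was the sum of the 10. T and NK cell markers, the usual source of interferon γ, summed to 3.98 to 12.7 normalized CPM in FCGR4+ libraries but to 20.3 to 63.7 in FCGR4- libraries, lower in FCGR4+ cells in 4 of 4 mice. Of markers of other cells, several lists were lower. Past the threshold as lower in FCGR4+ cells were 8 of 8 mast cell and basophil genes (sums of 6.85 to 24.4 against 196.3 to 2083 normalized CPM), 5 of 7 neutrophil genes (114.8 to 542.6 against 378.6 to 2381) and 4 of 8 dendritic cell genes (7.91 to 16.1 against 45.1 to 97.4). B cell markers had sums of 12 to 19.6 against 8.12 to 36.8 normalized CPM, with *Cd79b* at a log2 fold change of 0.41, and of 6 endothelial genes 0 passed by edgeR or DESeq2, 1 had an unadjusted P under 0.05, and the sums were 11.02 to 21.9 against 14.6 to 29.3. The part of these cells in the members' values was not tested. In bulk libraries, fewer cells of a type and less RNA per cell cannot be told apart.

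Per length, the members spanned a wide range. On the scale of RPKM (normalized CPM per kilobase of exon), the mean level over the 8 libraries was 259.7 for *AW112010*, 104.4 for *Aif1* and 48.9 for *Gbp2*. *Irf1* followed at 19.4, *Cxcl10* at 18.2 and *Gbp3* at 11.6. *Cxcl9* stood at 3.31, *Gbp6* at 2.45 and *Gbp5*, the lowest, at 0.530. All 8 pairs of neighbors in this order overlapped in their values across libraries, since a single gene varied from 3.30-fold (*Irf1*) to 13.3-fold (*Gbp2*) between its lowest and highest library.

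*Cxcl9* (chr5:92321347-92328079 of mm10, minus strand), the CXCR3 ligand tied most closely to interferon γ, was higher in FCGR4+ cells of every mouse. Its level in FCGR4+ libraries of mice 1 to 4 was 31.6, 7.40, 11.9 and 9.65 normalized CPM, and in FCGR4- libraries it was 8.51, 2.44, 4.73 and 3.53. Mouse 1 was the highest and mouse 2 the lowest in both populations, and the populations overlapped only because the FCGR4- library of mouse 1 exceeded the FCGR4+ library of mouse 2. Within a mouse the log2 ratio lay between 1.33 and 1.89, with a mean of 1.56 ± 0.243 (SD, n = 4 mice), the smallest spread among the members.

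*Cxcl10* (chr5:92346638-92348889, minus strand), which encodes the ligand of the same receptor and lies beside *Cxcl9*, did not share this pattern. Its level was 20.5, 8.49, 44.2 and 72.5 normalized CPM in FCGR4+ libraries of mice 1 to 4 and 9.59, 9.89, 70.4 and 91.8 in FCGR4- libraries. It was higher in FCGR4+ cells in mouse 1 alone, and its log2 ratio had a mean of -0.03 ± 0.775 (SD, n = 4). The mice differed far more than the populations did, since all 4 libraries of mice 3 and 4 exceeded all 4 of mice 1 and 2. The mean level in mice 3 and 4 was 4.03-fold that in mice 1 and 2 in FCGR4+ cells and 8.33-fold in FCGR4- cells. The ratio of *Cxcl10* to *Cxcl9* counts therefore ran from 0.649 in the FCGR4+ library of mouse 1 to 26.0 in the FCGR4- library of mouse 4. In each mouse it was lower in FCGR4+ cells, with 0.649, 1.15, 3.71 and 7.51 in FCGR4+ libraries of mice 1 to 4 against 1.13, 4.05, 14.9 and 26.0 in FCGR4- libraries. Of the exon bases of *Cxcl10*, 5.91% overlap *Art3*, a gene at 1.11 normalized CPM or less on the mean of either population.

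**Figure D1:**
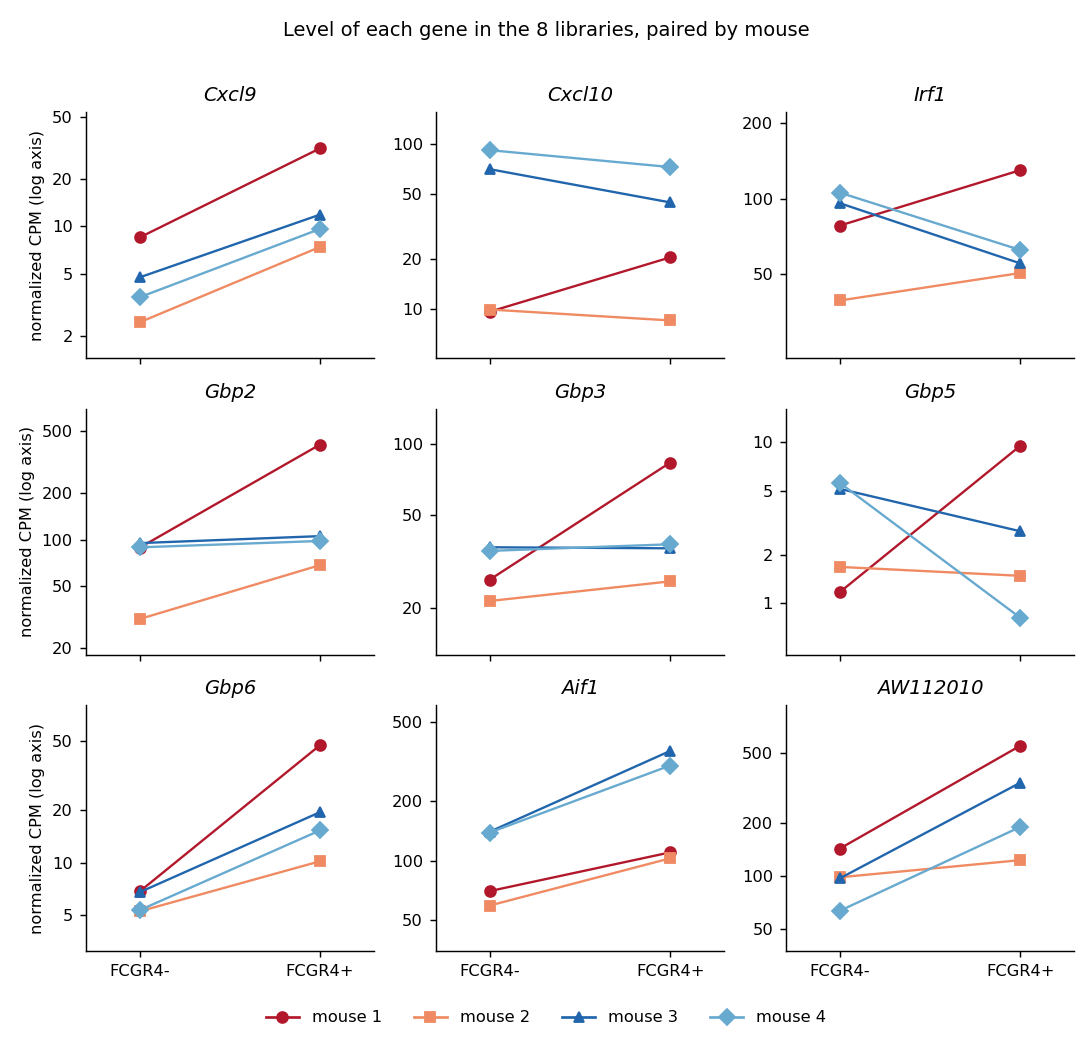
Level of each of the 9 genes in normalized CPM (vertical log axes that differ between panels) in FCGR4- and FCGR4+ libraries, with a line joining the 2 libraries of 1 mouse. *Cxcl9*, *Gbp6*, *Aif1* and *AW112010* rise to the right in all 4 mice, the lines of *Irf1* cross, and for *Cxcl10* and *Aif1* mice 3 and 4 sit above mice 1 and 2 on both sides.

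*Irf1* (chr11:53770014-53778374, plus strand), the transcription factor that carries the response on to later targets, moved in opposite directions in the mice of different ID prefix. Its level was 129.7, 50.5, 55.2 and 62.4 normalized CPM in FCGR4+ libraries and 78.1, 39.3, 95.8 and 105.5 in FCGR4- libraries. FCGR4+ cells were higher in mice 1 and 2 (log2 ratios of 0.73 and 0.36) and lower in mice 3 and 4 (-0.80 and -0.76). Of the exon bases of *Irf1*, 3.40% overlap another gene, *Gm17334*.

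Among the GBP members, *Gbp2* (chr3:142620602-142638008, plus strand) was the most abundant per length. It reached 409.2 normalized CPM in the FCGR4+ library of mouse 1 and 68.6, 105.3 and 98.0 in those of mice 2 to 4, beside 88.8, 30.8, 95.0 and 89.2 in FCGR4- libraries. FCGR4+ cells had the higher level in each mouse, by log2 ratios of 2.20 and 1.15 in mice 1 and 2 and of 0.15 and 0.14 in mice 3 and 4. *Gbp3* (chr3:142560026-142573209, plus strand) had 83.7, 26.0, 35.9 and 37.4 normalized CPM in FCGR4+ libraries and 26.4, 21.4, 36.3 and 35.0 in FCGR4- libraries. It stood out in the FCGR4+ library of mouse 1 alone, and in the other mice its log2 ratio was between -0.01 and 0.28.

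*Gbp5* (chr3:142493978-142522344, plus strand), whose protein promotes inflammasome assembly, was the scarcest member and the one whose ratio within mice varied most. Its level was 9.51, 1.48, 2.79 and 0.809 normalized CPM in FCGR4+ libraries and 1.17, 1.68, 5.13 and 5.58 in FCGR4- libraries. The FCGR4+ library of mouse 1 was the highest of the 8 and that of mouse 4 the lowest, and the log2 ratio averaged -0.20 ± 2.38 (SD, n = 4). *Gbp6* (chr5:105270702-105293698, minus strand) was the only member whose populations did not overlap. Its level was 47.6, 10.2, 19.6 and 15.4 normalized CPM in FCGR4+ libraries and 6.82, 5.24, 6.75 and 5.32 in FCGR4- libraries. Of all tested genes, 0.883% had every FCGR4+ library above every FCGR4- library. The counts of *Gbp6* are uncertain, because 70.7% of its 50-base words also occur in other genes, 65.0% in *Gm43302*, whose exons overlap 29.0% of its own. *Gm43302* was at 3.15 and 1.07 normalized CPM on the mean of FCGR4+ and FCGR4- libraries, below *Gbp6* in both. For *Gbp2*, *Gbp3* and *Gbp5* the shared words were 2.03%, 3.75% and 1.44%.

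*Aif1* (chr17:35170991-35176068, minus strand) had 110.1, 102.8, 356.7 and 301.2 normalized CPM in FCGR4+ libraries and 70.3, 59.5, 139.9 and 138.6 in FCGR4- libraries. Every mouse was higher in FCGR4+ cells, by log2 ratios from 0.65 to 1.35. Of 10 other macrophage markers, 6 were also higher in each mouse, with a median log2 fold change of 0.28 for the list, and their part in this value was not tested. Like *Cxcl10*, it stood higher in all 4 libraries of mice 3 and 4 than in any of mice 1 and 2, by 3.09-fold in FCGR4+ and 2.15-fold in FCGR4- cells. *AW112010* (chr19:11047617-11050566, minus strand) had 548.6, 122.7, 338.1 and 189.6 normalized CPM in FCGR4+ libraries and 142.8, 98.1, 96.7 and 63.3 in FCGR4- libraries. Its log2 ratio was 0.32 in mouse 2 and between 1.58 and 1.94 in the others. Neither gene shared a 50-base word with another gene.

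In the fit of all genes by edgeR's quasi-likelihood test, blocked by mouse, 4 of the 9 members, *Cxcl9*, *Gbp6*, *Aif1* and *AW112010*, were past the threshold of 0.1 on the adjusted P value as higher in FCGR4+ cells, and 0 as lower. Of all tested genes, 0.0819% were past it as higher and 1.19% as lower. Since this contrast chose the members, nothing is read from the count. Higher in 4 of 4 mice were 5 members, those 4 and *Gbp2*, as were 8.35% of all tested genes. The fitted log2 fold changes were 1.71 for *Gbp6*, 1.57 for *Cxcl9*, 1.43 for *AW112010* and 0.98 for *Aif1*. Nearest to the threshold on the inside was *AW112010*, and the members outside it were *Gbp2* at 0.90, *Gbp3* at 0.49, *Cxcl10* at -0.05, *Irf1* at -0.12 and *Gbp5* at -0.31. The median of the members was 0.90, against -0.00 over all tested genes. Without mouse 1 the median was 0.47 and 0 of the 4 genes remained past the threshold, with log2 fold changes of 1.46 for *Cxcl9*, 1.35 for *Gbp6*, 1.25 for *AW112010* and 1.09 for *Aif1* and adjusted P values by edgeR from 0.113 to 0.270. Without mouse 2, *Cxcl9*, *Gbp6* and *AW112010* remained, and without mouse 3 or mouse 4 only *Cxcl9* did. When each ID prefix was fitted by itself, only *Cxcl9* passed in mice 1 and 2 (edgeR adjusted P = 0.0645) and only *AW112010* in mice 3 and 4 (0.0816), where *Cxcl9* was at 0.138. With no replicate block, 0 of the 9 members passed. All 4 passed with DESeq2, the newer quasi-likelihood method, RLE size factors, library size alone and either other filter on low counts, and *Gbp2* passed as well with DESeq2 (adjusted P = 0.0800) and in edgeR without the filter (0.00877). At a threshold of 0.05 only *Cxcl9* passed.

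**Figure D2:**
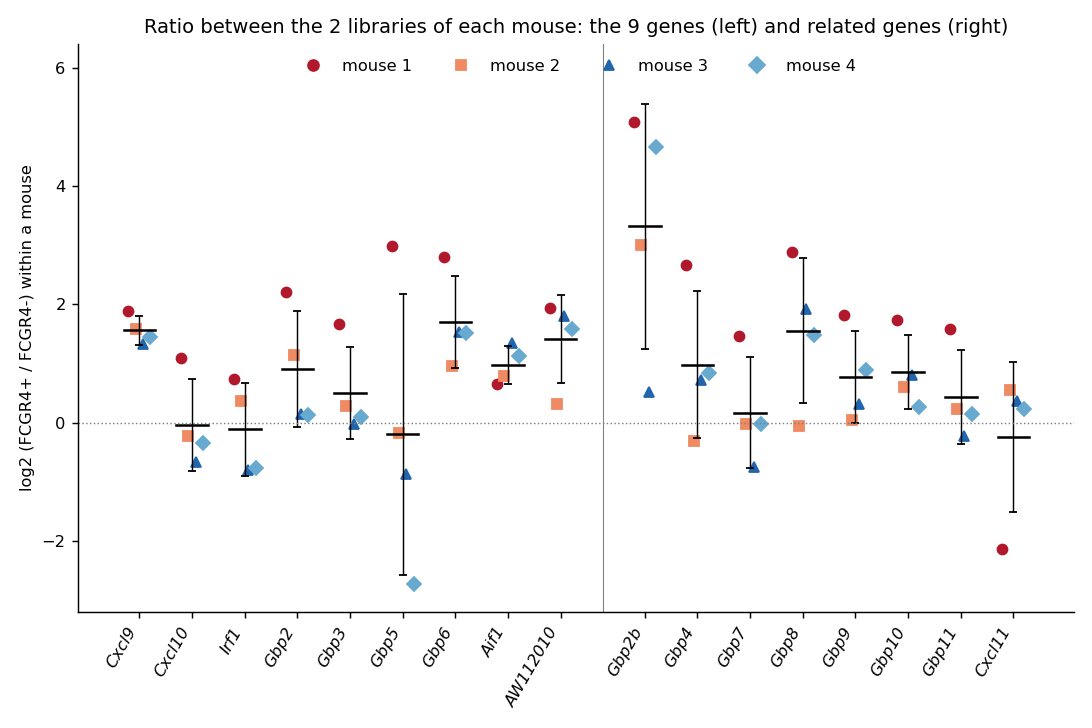
Log2 ratio of FCGR4+ over FCGR4- normalized CPM within each mouse (vertical axis, prior count of 2) for the 9 genes at left and 8 related genes at right, with 1 point per mouse, a bar at the mean and whiskers of 1 SD (n = 4 mice). The 4 points of *Cxcl9* lie closest together, from 1.33 to 1.89, while those of *Gbp5* and *Gbp2b* spread over more than 4 log2 units.

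The difference of the population effect between the mice of the 2 ID prefixes, which did not serve to name the members, was tested by an interaction term in the same edgeR model. No gene of the 17095, or 0%, was past the threshold, while 13.8% had an unadjusted P under 0.05, and DESeq2 called 977. With the filter on low counts removed, edgeR called 115. The interaction was below 0 (a smaller FCGR4+ excess in mice 3 and 4) for 7 of 9 members, as for 53.3% of all tested genes, with a median of -0.94 against -0.06. The size of this median rested on mouse 1: without it the median was -0.24, with *Gbp2* at -1.01 and *Gbp5* at -1.62, whereas without mouse 2, 3 or 4 it lay between -1.42 and -0.77. Lists without members shifted the same way: below 0 were 13 of 14 other GTPases (median -0.90), 15 of 16 signaling genes (-0.51), 16 of 19 further inducible genes (-0.58) and 22 of 24 type I interferon genes (-0.78). So did markers of another cell type, with 7 of 8 nonclassical monocyte genes below 0 (median -1.22) and ratios of their sum in FCGR4+ over FCGR4- libraries of 2.05, 1.00, 0.494 and 0.521 in mice 1 to 4, whose part in the members' values was not tested. That sum is weighted to its most abundant gene, at 72.9 and 95.9 normalized CPM on the mean of FCGR4+ and FCGR4- libraries. Among the members, the unadjusted P was under 0.05 for 4. The values were -1.33 (standard error, SE, 0.216) for *Irf1*, -1.54 (SE 0.365) for *Gbp2*, -3.26 (SE 1.29) for *Gbp5* and, in the other direction, 0.52 (SE 0.198) for *Aif1*. Their adjusted P values by edgeR were 0.303, 0.304, 0.359 and 0.354. With DESeq2, *Irf1* (adjusted P = 7.7e-05) and *Gbp2* (adjusted P = 5.5e-04) passed, and with no filter they passed in edgeR too, at 0.0704 and 0.0977. For *Cxcl9*, *Gbp6* and *AW112010* the interaction was -0.36, -0.38 and 0.56, with SEs of 0.307, 0.615 and 0.525. Signs turned with single mice left out, since *Gbp6* was at 0.57 without mouse 1 and *AW112010* at -0.16 without mouse 2, and *AW112010* stood at 1.37 without mouse 1 (edgeR, unadjusted P = 0.00246, adjusted P = 0.570). Higher in FCGR4+ cells in mice 1 and 2 and lower in mice 3 and 4 was 1 member, *Irf1*, and 9.92% of all tested genes.

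The library of FCGR4+ cells of mouse 1 held the highest of the 8 values for 7 of the 9 members, all but *Cxcl10* and *Aif1*, as it did for 17.1% of all tested genes. Its level over the mean of the other 3 FCGR4+ libraries ranged among these 7 from 2.31-fold for *Irf1* to 5.62-fold for *Gbp5*. The lowest of the 8 values lay in a library of mouse 2 for 7 members, all but *Gbp5* and *AW112010*, and for 19.9% of all tested genes. In 6 of these it was the FCGR4- library, and for *Cxcl10* the FCGR4+ library. All 4 libraries of mice 3 and 4 exceeded all 4 of mice 1 and 2 for 2 members, *Cxcl10* and *Aif1*, against 8.49% of all tested genes. This contrast between mice was noticed in these values and was not tested. In deviations from the population mean (log2 CPM over 8 libraries of 4 mice, where libraries of 1 mouse share the animal), *Gbp2* had a Pearson r of 0.957 with *Irf1* and 0.945 with *Gbp3*, and *Cxcl10* one of 0.885 with *Aif1*. *Cxcl9* and *Cxcl10* had an r of -0.06. Against the mean of the other members, r was highest for *Gbp3* at 0.942 and *Gbp2* at 0.927, and lowest for *Cxcl10* at 0.354 and *Aif1* at 0.115. Outside the members, the genes of at least 10 normalized CPM most like their mean deviation were *Erlin1* (r = 0.981), *Hnrnpd* (0.977), *Egr1* (0.970), *Fam118a* (0.966) and *Gm8995* (0.963), over the same 8 libraries. They were picked as the highest r of all such genes, so high values come in part from the search and were not tested.

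Both orders of libraries were also found among genes that were not members, to a different extent in each list, and differences between lists were not tested. The other interferon-inducible GTPases, 7 GBPs and 7 immunity-related GTPases of the IRG family, had their highest value in the FCGR4+ library of mouse 1 in 12 of 14 cases, and 0 of the 14 were higher throughout mice 3 and 4. Their sum there was 980.6 normalized CPM, against 233.6 to 488.9 in the other FCGR4+ libraries and 166.1 to 413.1 in FCGR4- libraries. Of 24 genes known for their response to type I interferon, such as *Isg15*, *Ifit1*, *Mx1* and *Rsad2*, 24 were higher in all 4 libraries of mice 3 and 4 than in any of mice 1 and 2, and 0 were highest in the FCGR4+ library of mouse 1. Their sum was 492.0, 469.2, 1880 and 3191 normalized CPM in FCGR4+ libraries of mice 1 to 4 and 275.9, 355.5, 2412 and 3156 in FCGR4- libraries. Of 19 further genes induced by interferon γ, 6 were highest in the FCGR4+ library of mouse 1 and 3 were higher throughout mice 3 and 4, and of 16 genes of interferon γ signaling these counts were 6 and 0. *Cxcl10* and *Cxcl11*, another CXCR3 ligand, followed this order of mice and *Cxcl9* did not. Classical monocyte markers moved with it as well, with 5 of 7 higher throughout mice 3 and 4 and sums from 2762 to 4390 normalized CPM there against 703.1 to 1189 in mice 1 and 2. Nonclassical monocyte markers had their highest sum, 254.6 normalized CPM, in the FCGR4+ library of mouse 1, where 5 of the 8 genes were highest. On the mean of either population, 1 gene of this list was by far the most abundant, as given above. Of the 8, only *Cd300e* was past the threshold as higher in FCGR4+ cells, with 8.01 ± 6.32 against 1.44 ± 0.840 normalized CPM (SD, n = 4), a log2 fold change of 2.36 and an edgeR adjusted P of 0.0631. It was higher in each mouse and its populations did not overlap, while the median of the 8 genes was -0.23, and DESeq2 also called 1 of the 8 as higher. The part of monocytes in these levels was not tested, and ID prefix, mouse and any handling that went with them cannot be told apart.

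**Figure D3:**
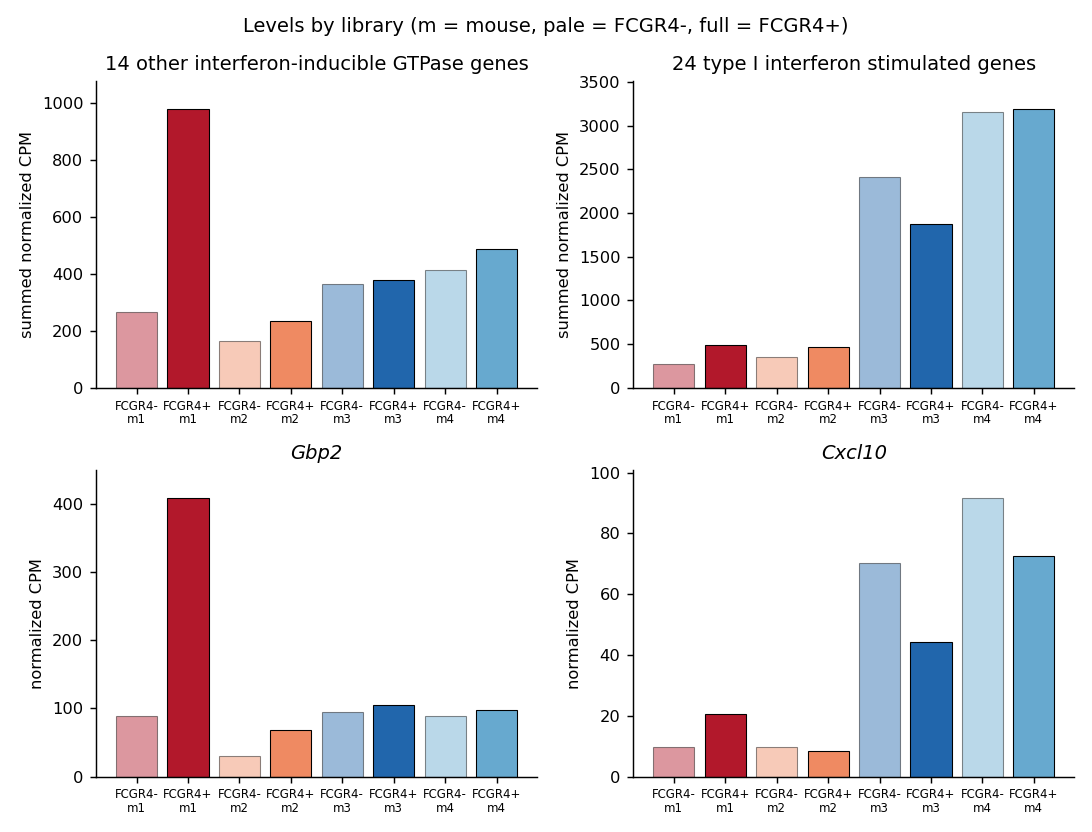
Summed level of the 14 other GTPase genes and of the 24 type I interferon stimulated genes (top) and level of *Gbp2* and *Cxcl10* (bottom), in normalized CPM from 0, with 1 bar per library, colored by mouse, pale for FCGR4- and full for FCGR4+. The GTPase sum and *Gbp2* peak in the FCGR4+ library of mouse 1, while the type I sum and *Cxcl10* are high in the 4 libraries of mice 3 and 4.

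The rest of the interferon γ pathway was read from 4 lists of 60 genes, of which 59 were tested (*Ido1* was not). Past the threshold of the paired edgeR fit were 0, whereas 19 had an unadjusted P under 0.05, 15 higher and 4 lower, and DESeq2 called 13, of which 10 were higher. Of all tested genes, 9.77% had an unadjusted P under 0.05, and DESeq2 called 1.12% as higher and 4.87% as lower. The median log2 fold change of the 59 was 0.16, and 35 were above 0. The ligand gene *Ifng* was scarce, with 0, 10, 0 and 5 counts in FCGR4+ libraries of mice 1 to 4 and 3, 23, 31 and 19 in FCGR4- libraries. It was lower in FCGR4+ cells of each mouse, with a fitted log2 fold change of -2.80 (SE 1.13) that did not pass (edgeR, unadjusted P = 0.0421, adjusted P = 0.488). The receptor genes were at 394.4 and 391.8 normalized CPM for *Ifngr1* and 82.2 and 78.2 for *Ifngr2* on the mean of FCGR4+ and FCGR4- libraries, log2 fold changes of -0.03 and 0.06. *Ciita*, which encodes the master activator of MHC class II genes, differed by 0.25 on the log2 scale (edgeR, adjusted P = 0.696). *Cxcr3*, the receptor of CXCL9 and CXCL10 and a T and NK cell gene, was just outside the threshold as lower in FCGR4+ cells, at a log2 fold change of -1.59 with an edgeR adjusted P of 0.1005. It passed as lower with DESeq2 (4.3e-04), the newer quasi-likelihood method (0.0549), no filter (0.00286), at least 10 counts in every library (0.0540) and library size alone (0.0952). T and NK cell markers moved the same way, 6 of 12 tested past the threshold as lower and 0 as higher, and their part in this value was not tested.

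All 14 GTPase genes had a log2 fold change above 0, with a median of 0.77 and 7 higher in 4 of 4 mice, but 0 passed by edgeR, 7 had an unadjusted P under 0.05, and 5 passed with DESeq2 (*Gbp2b*, *Gbp8*, *Iigp1*, *Tgtp1* and *Tgtp2*). *Tgtp1* and *Tgtp2* are near copies, with 79.4% of the 50-base words of *Tgtp1* found in *Tgtp2* and 85.8% of those of *Tgtp2* in *Tgtp1*, so they are not separate evidence. The ratio of the summed GTPase level in FCGR4+ over FCGR4- libraries was 3.67, 1.41, 1.04 and 1.18 in mice 1 to 4. Of the 16 signaling genes, 7 were above 0, with a median of -0.02, and the difference between the lists was not tested. Among the GBPs that were not members, *Gbp2b* was the most uneven, with 76.1 normalized CPM in the FCGR4+ library of mouse 1 against 2.37 to 3.58 in the other FCGR4+ libraries and 0.0586 to 2.20 in FCGR4- libraries. The fitted change was 3.40 on the log2 scale (SE 0.843, edgeR adjusted P = 0.194), and it passed with DESeq2 (0.00385), with the newer quasi-likelihood method (0.0657), with no filter (1.2e-07), without mouse 3 (0.0101 by edgeR) and in mice 1 and 2 taken alone (0.0404). *Gbp8* had a log2 fold change of 1.61, *Gbp4* of 0.99, *Gbp10* of 0.87, *Gbp9* of 0.77, *Gbp11* of 0.48 and *Gbp7* of 0.16. Their adjusted P values by edgeR lay between 0.289 and 0.881. With no filter *Gbp8* (0.00264), *Gbp9* (0.0618) and *Gbp4* (0.0653) passed in edgeR, and *Gbp8* also passed with DESeq2 (0.0117) and the newer quasi-likelihood method (0.0943). *Gbp10* shares 73.3% of its 50-base words with *Gbp6*, so the 2 genes are not separate evidence. *Cxcl11*, at 2.01 normalized CPM or less in every library, had a log2 fold change of -0.24, and 40.4% of its words occur in *Gm2673*. Of the 8 other CXC chemokine genes, 1 passed, *Cxcl12*, a chemokine of stromal cells, as lower in FCGR4+ cells (-1.25 on the log2 scale, SE 0.241, edgeR adjusted P = 0.0967). Fibroblast markers moved with it, 5 of 8 past the threshold as lower, with sums of 136.4 to 272.5 normalized CPM in FCGR4+ and 333.8 to 1429 in FCGR4- libraries, and their part was not tested. Of the 24 type I interferon stimulated genes, 0 passed by edgeR or by DESeq2, 3 had an unadjusted P under 0.05, and the median log2 fold change was 0.24.

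**Figure D4:**
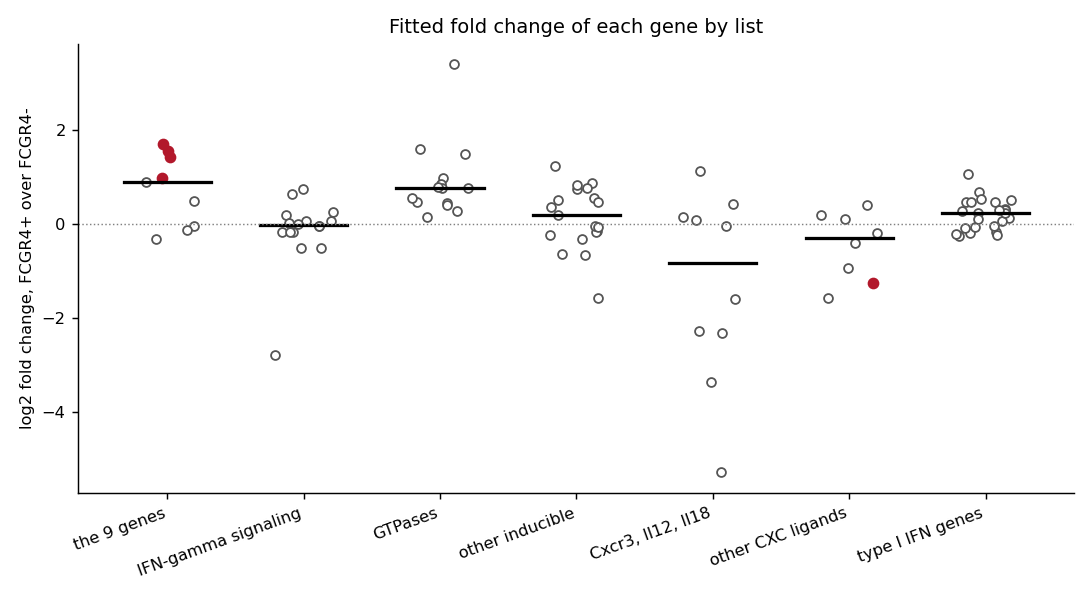
Log2 fold change of FCGR4+ over FCGR4- cells from the paired edgeR fit (vertical axis) for each tested gene of 7 lists, with filled points for genes past the threshold of 0.1 on the adjusted P value, open points for the others and a bar at each list's median. Filled are 4 of the 9 genes, which this contrast chose, and *Cxcl12*, and the GTPase list is the only one with all points above 0.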

How the data were processed

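Bulk RNA-Seq of 8 libraries (4 mice, 2 populations) was used. The authors mapped read pairs to mm10 with STAR and counted them on GENCODE M18 genes with featureCounts 1.6.3, and the counts were deposited without normalization. Per the file headers, a pair with several map positions counted once at every one of them, with no regard to strand, so counts of paralogs and of overlapping genes are uncertain. The members and the gene lists were chosen with earlier results of these data known. All 8 sample columns were used (0 others were left out), mapped to population and mouse by the labels, and 54079 of 54146 genes had a symbol.

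The filter required 10 or more counts in 4 or more libraries and left 17095 genes. These were normalized by TMM and compared by the quasi-likelihood method of edgeR 4.0.16 (R 4.3.3), blocked by mouse, with Benjamini-Hochberg adjustment over all of them and a threshold of 0.1. Pairing comes from the mouse number: deviations from the population mean correlated with a median r of 0.336 within a mouse and -0.0615 between mice. No 2 libraries of one population were duplicates. An interaction term tested the population effect by ID prefix. Standard errors are the log2 fold change over the square root of F. Per-mouse ratios use log2 CPM with a prior count of 2. Normalized CPM are counts scaled by TMM-adjusted library totals, and RPKM divides them by exon length. Shared 50-base words and exon overlap were read from a later GENCODE release of mm10, and promoter windows from RefSeq (GRCm38.p6). As a check of the code, the fits were also run on simulated counts. No recovery rate is given, so missed changes cannot be judged from it. Alternatives were no replicate block, DESeq2 1.42.0, edgeR's newer quasi-likelihood method, other normalizations and filters, a threshold of 0.05, each mouse left out and each ID prefix alone. Each member had at least 39 counts in every library, and n = 4 mice limits the precision.

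Named genes are the 9 members, *Fcgr4*, *Ifng*, *Ifngr1*, *Ifngr2*, *Ciita*, every other GBP gene, *Cxcl11*, each gene past the threshold in the interferon γ pathway, CXC chemokine and type I interferon lists, and the 5 genes most like the members' mean deviation. A named signaling gene and a marker gene are not reported here. *Cxcr3*, *Cd300e*, *Cd79b*, *Art3*, *Gm43302*, the GTPase genes passing only under an alternative and the examples of type I interferon genes were added after their values were seen.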

Additional observations from a re-analysis of the deposited data

Results flagged for a closer look

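The level of each member was examined for a library far from the other 3 of its population, as were the per-mouse ratios, in 27 groups of 4 values. By chance 1.35 of them would be picked out, and 1 was. *Gbp2* in FCGR4- libraries was low in mouse 2, at 4.95 on the log2 CPM scale against 6.47 to 6.57 in the others, a gap of 0.940 of the whole range. Mouse 2 held the lowest value of 7 of the 9 members, 6 of them in this library. The library has the smallest total, 35992794 counts, and held 1048 counts of *Gbp2*, and the part of depth in this value was not tested.

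The population effect on *Irf1* differed in direction between the mice of the 2 ID prefixes, with an interaction of -1.33 on the log2 scale. The FCGR4+ over FCGR4- log2 ratios were 0.73 and 0.36 in mice 1 and 2 and -0.80 and -0.76 in mice 3 and 4. By edgeR's interaction test the unadjusted P was 0.00103 and the adjusted P 0.303, so it failed the correction, and over the alternatives of the fit the adjusted P ran from 7.7e-05 with DESeq2 to 0.574 without mouse 1.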

How the results depend on the processing

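The number of genes past the threshold, 217, was 48 with no replicate block (47 of them among the 217), 1024 with DESeq2, 629 with edgeR's newer quasi-likelihood method, 1054 with no filter on low counts, 76 at a threshold of 0.05, 115 in mice 1 and 2, 72 in mice 3 and 4, and from 78 to 162 with each mouse left out. All 217 were among those of DESeq2. Interferon γ pathway genes past it, 0, were 13 with DESeq2, 7 with the newer method, 1 with library size alone (*Cxcr3*, lower), 15 with no filter, 3 with at least 10 counts in every library, 1 with mice 1 and 2 alone (*Gbp2b*), and 0 or 1 with each mouse left out (*Gbp2b* without mouse 3). The interaction with ID prefix, 0 genes, called 977 with DESeq2, 115 with no filter and 1 with at least 10 counts in every library, and 0 with no replicate block or with a mouse left out, which were alternatives chosen after seeing the data. The cause of each change was not tested. The median of the members stayed above 0 throughout, lowest (0.12) in mice 3 and 4 and highest (1.13) in mice 1 and 2. The signs of *Cxcl10*, *Irf1* and *Gbp5* turned when single mice were left out, over ranges of -0.41 to 0.16, -0.40 to 0.11 and -1.26 to 0.56, while those of the other 6 members held. Since this contrast chose the members, these medians and signs describe them and test nothing.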
